A study of Mus musculus with 19 samples.

Results

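The milk protein genes were read in 19 mouse libraries of mammary gland and mammary tumor RNA. They are 10 genes of the 46078 in the deposited table, chosen by name and found by Ensembl gene ID. They comprise the caseins Csn1s1, Csn1s2a, Csn1s2b, Csn2 and Csn3, the whey proteins Wap and Lalba, the mucin-like Glycam1, and the fat globule membrane proteins Muc1 and Btn1a1. The wild-type glands, MG-WT, numbered 3. The other gland and tumor groups held 4 libraries each and came from females carrying MMTV-neu, a transgene that drives the neu (ERBB2) receptor in mammary epithelium. The glands MG-NP and the tumors T-NP carried MMTV-neu with p53wm-R172H/+ and Fsp-Cre, a Cre driven in fibroblasts that turns the conditional p53 allele into its R172H form there. The T-N tumors carried MMTV-neu and Fsp-Cre. The MG-N group was mixed, with MG-N 1 carrying MMTV-neu and Fsp-Cre, and MG-N 2 to 4 carrying MMTV-neu and p53wm-R172H/+ without Cre. MG-N and MG-NP glands came from tumor-bearing mice and were free of malignant lesions, so these 16 libraries share the neu transgene. The labels give no age or reproductive state, and the names of T-NP 1 and 2 share a number.

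Milk proteins are made by the luminal secretory cells of the mammary gland, mostly in late pregnancy and lactation. Prolactin binds its receptor and, through the kinase JAK2 and the factor STAT5, switches on caseins, whey proteins and other secretory genes. Caseins form the micelles of milk. Whey acidic protein is the main whey protein of mouse milk, and alpha-lactalbumin is the subunit that lets galactosyltransferase make lactose.

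The libraries differed in tissue makeup, and bulk RNA cannot separate fewer cells of a type from less RNA per cell. Gene reads numbered 54677315 to 62645459 in MG-WT, and the remaining 16 libraries had 20899152 to 27262440. The summed normalized counts of 8 white adipocyte markers were 1968 to 2875 in MG-WT, 285105 to 390561 in MG-N, 137955 to 364040 in MG-NP, 642 to 7001 in T-N and 941 to 2399.5 in T-NP. The luminal score, the mean log2(normalized count + 1) of 9 luminal epithelial markers, was 12.9 to 13.2 in MG-WT, 10.005 to 11.1 in MG-N, 9.32 to 11.1 in MG-NP, 12.1 to 12.6 in T-N and 12.3 to 12.8 in T-NP. The wild-type glands thus stood apart from the other glands, with fewer adipocyte and more epithelial marker transcripts. Their 7 basal markers summed to 57088 to 69995 against 8811 to 22698 in the other glands and 1339 to 4934 in the tumors. The 9 skeletal muscle markers ran from 11243 to 2711290 in MG-NP, from 299.7 to 16621 in MG-N and from 91.3 to 113 in MG-WT. A normalized count is a read count divided by 1 size factor per library. Differences are given on the scale of log2(normalized count + 1), and a gene was called where its limma adjusted p was under 0.05 and its change at least 2-fold. The part of tissue makeup in the comparisons of milk genes was not tested, beyond a fit centred on the luminal markers.

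The 5 casein genes lay within 266.5 kb of chromosome 5 (GRCm38, chr5:87666208-87932665) in the order Csn1s1, Csn2, Csn1s2a, Csn1s2b and Csn3. Of the 8 other annotated genes in that span, only Odam, which encodes an odontogenic ameloblast-associated protein, reached a normalized count of 10 in any library, with a highest value of 50.02 in T-NP 2. The other members were on separate parts of the genome, with Wap at chr11:6635482-6638637, Lalba at chr15:98480400-98482721, Glycam1 at chr15:103562759-103565081, Muc1 at chr3:89229057-89233381 and Btn1a1 at chr13:23456992-23465901. Csn3 overlapped an annotated antisense gene, 1700066N21Rik, whose highest normalized count was 8.17.

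RefSeq promoters on GRCm38.p6 matched 7 of the 10 members. The 250 bases before the start of 5 of them are shown because Csn1s1, Csn2, Csn1s2a and Wap moved together across libraries while Glycam1 was highest in other ones. Capitals mark TTCNNNGAA, the palindromic core bound by STAT5 factors, searched on both strands. It was found 1 time in Csn1s1, Csn2 and Glycam1, starting 100, 93 and 145 bases before the start, and in none of the 250-base windows of Csn1s2a, Wap, Lalba and Muc1. Of 32851 promoter windows of the same length, 7.0% held it. The windows are Csn1s1 (chr5:87665958-87666207, plus strand), Csn2 (chr5:87699426-87699675, minus strand), Csn1s2a (chr5:87774200-87774449, plus strand), Wap (chr11:6638650-6638899, minus strand) and Glycam1 (chr15:103565082-103565331, minus strand).
Csn1s1: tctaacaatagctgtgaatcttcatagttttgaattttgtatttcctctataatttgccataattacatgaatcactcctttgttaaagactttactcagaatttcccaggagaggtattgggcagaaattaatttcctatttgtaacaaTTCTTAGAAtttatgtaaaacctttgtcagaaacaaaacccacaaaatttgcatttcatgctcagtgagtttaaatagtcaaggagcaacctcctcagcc
Csn2: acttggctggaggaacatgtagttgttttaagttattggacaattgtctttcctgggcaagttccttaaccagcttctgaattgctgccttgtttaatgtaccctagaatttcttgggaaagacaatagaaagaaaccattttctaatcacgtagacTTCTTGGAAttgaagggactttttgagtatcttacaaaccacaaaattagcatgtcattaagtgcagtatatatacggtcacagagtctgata
Csn1s2a: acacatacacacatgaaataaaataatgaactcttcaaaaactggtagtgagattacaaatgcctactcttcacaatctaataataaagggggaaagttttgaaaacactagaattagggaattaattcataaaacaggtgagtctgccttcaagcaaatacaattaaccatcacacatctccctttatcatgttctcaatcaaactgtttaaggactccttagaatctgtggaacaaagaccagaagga
Wap: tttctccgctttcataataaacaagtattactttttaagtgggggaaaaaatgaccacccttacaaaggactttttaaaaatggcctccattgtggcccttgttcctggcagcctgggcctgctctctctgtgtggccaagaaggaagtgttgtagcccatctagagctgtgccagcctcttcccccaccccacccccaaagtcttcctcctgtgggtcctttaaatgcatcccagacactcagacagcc
Glycam1: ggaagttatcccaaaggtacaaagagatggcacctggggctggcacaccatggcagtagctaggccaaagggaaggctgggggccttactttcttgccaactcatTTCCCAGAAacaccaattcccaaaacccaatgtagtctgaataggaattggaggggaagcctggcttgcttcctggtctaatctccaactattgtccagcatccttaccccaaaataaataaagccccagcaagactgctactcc

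Milk protein transcripts took a larger share of the tumor libraries than of the gland libraries. The 10 genes together made up 0.0420%, 0.0940% and 0.0576% of the normalized counts in MG-WT 1 to 3. In MG-N 1 to 4 they made up 0.722%, 0.0138%, 0.0550% and 0.0343%, and in MG-NP 1 to 4 they made up 0.260%, 0.0970%, 0.462% and 0.0182%. In T-N 1 to 4 the shares were 2.46%, 0.305%, 2.79% and 0.464%, and in T-NP 1 to 4 they were 2.01%, 1.52%, 1.48% and 1.25%. MG-N 1 lay above T-N 2 and T-N 4, so the tumors and the glands overlapped. Csn3 was the most counted member in each tumor, Csn1s1 in each MG-N and MG-NP gland, and Glycam1 in each wild-type gland.

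**Figure D1:**
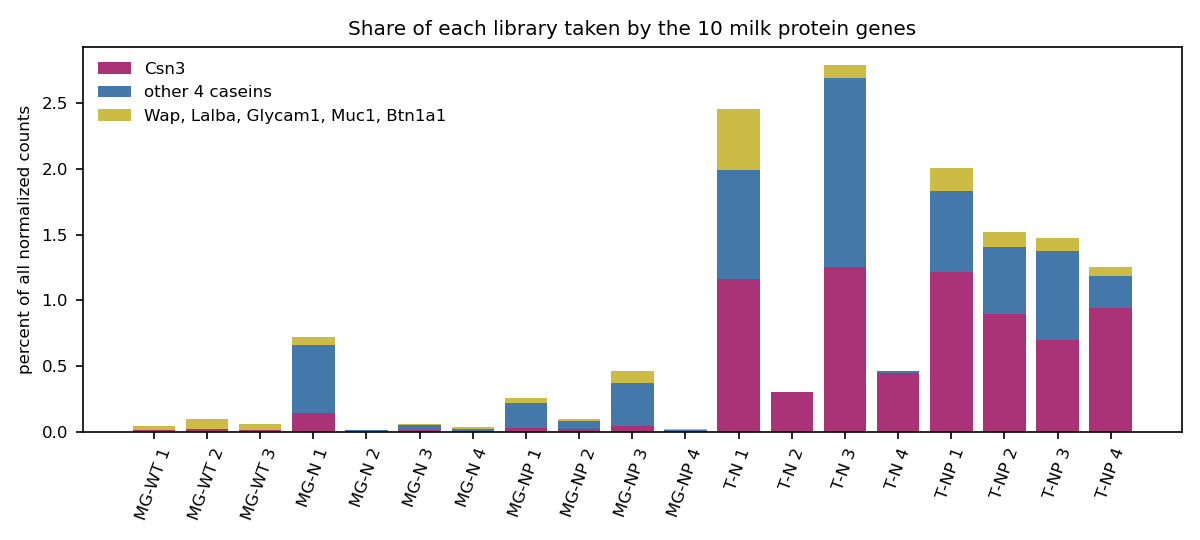
Bars give the percent of all normalized counts in each of the 19 libraries that fell on Csn3, on the other 4 caseins and on the other 5 milk protein genes. T-N 2 and T-N 4 reached 0.305% and 0.464%, nearly all of it Csn3, while T-N 1 and T-N 3 reached 2.46% and 2.79%.

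Per kilobase of transcript, the order of the members differed between the groups. In MG-WT, Glycam1 had the highest median at 12695 normalized counts per kilobase, followed by Csn3 at 1648, Btn1a1 at 1061 and Muc1 at 785. Glycam1 did not overlap Csn3 there, while Csn3 and Btn1a1, and Btn1a1 and Muc1, overlapped between libraries. In T-NP the order began with Csn3 at 160483, Csn1s1 at 84470.2, Lalba at 22688 and Csn1s2a at 12632, and only the step from Csn1s1 to Lalba was free of overlap. In MG-NP the highest medians per kilobase were those of Csn1s2a at 12030.4, Csn1s1 at 10979.8 and Csn2 at 4747, and their ranges overlapped. By median, Wap was the lowest of the 10 members in MG-WT, and Csn1s2b the lowest in each other group. The rank in MG-WT rests on few reads, 0 to 2 of Wap and 1 to 5 of Csn1s2a, the next lowest, and their values overlapped. In MG-N 2 to 4, Csn1s2b had 0, 5 and 1 reads, and it overlapped Wap in MG-N.

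Kappa casein, Csn3, which coats and stabilises the micelle, was high in all 8 tumors. Its normalized counts in T-N 1 to 4 were 317016, 81334, 345119 and 121959, and in T-NP 1 to 4 they were 316736, 248136, 189947 and 264127. The glands had 2395, 4980.1 and 2630.0 in MG-WT, 37545, 1131, 2946 and 1855 in MG-N. MG-NP had 6357, 6111, 9399 and 1608. Every tumor lay above every gland, and the 3 gland groups overlapped each other. Csn3 was higher in T-N than in MG-N by 5.54 on the log2 scale (SE 1.03, limma adjusted p = 0.00246) and higher in T-NP than in MG-NP by 5.67 (SE 0.50, limma adjusted p = 5.05e-05). It kept the same side of the threshold in both comparisons under the alternatives tried.

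Alpha-lactalbumin, Lalba, had a like order with more spread. Its normalized counts were 99399, 786, 12404 and 331 in T-N and 23725, 15935, 19049 and 11386 in T-NP. The glands had 8.96, 375 and 22.2 in MG-WT, 7266, 5.75, 14.1 and 22.7 in MG-N. MG-NP had 236, 711, 464 and 31.0. T-NP lay above MG-NP without overlap, while MG-N 1 lay above T-N 2 and T-N 4. Lalba was higher in T-NP than in MG-NP by 6.24 (SE 0.85, limma adjusted p = 0.000415). The difference of T-N and MG-N was 6.03 (SE 2.46, limma adjusted p = 0.068) and did not pass, and without MG-N 1 it was 8.30 with a limma adjusted p of 0.00902.

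Alpha-s1 casein, Csn1s1, separated the tumors of the T-N group more than the groups. T-N 1 to 4 had normalized counts of 186943, 144, 301356 and 4119.8, and T-NP 1 to 4 had 121851, 116524, 176888 and 60203. MG-N had 65332, 1332, 6800.1 and 2464, MG-NP had 18168, 12817, 38738 and 2222, and MG-WT had 652, 75.2 and 207. T-N 2 was below every MG-N and MG-NP gland, and T-NP lay above MG-NP without overlap. Csn1s1 was higher in T-NP than in MG-NP by 3.22 (SE 0.78, limma adjusted p = 0.008), a call that was lost with all 5 groups in 1 fit (adjusted p = 0.138) and when centred on the luminal markers (adjusted p = 0.0541).

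Across the members, T-NP against MG-NP gave 4 genes higher (Csn1s1, Csn3, Lalba and Btn1a1) and 0 lower of 10 tested, where limma called 38.7% of all 17880 genes, 14.7% higher and 24% lower. T-N against MG-N gave 1 member higher (Csn3) and 0 lower of 8 tested, where 35.1% of 17950 genes were called, 12.8% higher and 22.3% lower. Csn1s2b and Wap did not pass the filter on low values there, which asked for a normalized count of 10 in at least 4 libraries. Without overlap between the groups, 5 members (Muc1 being the fifth) were higher in T-NP, against 25.2% of all genes higher and 27.4% lower, and Csn3 alone in T-N, against 22.7% higher and 26.4% lower. The median difference of the tested members was 0.80 in T-NP against MG-NP and 0.97 in T-N against MG-N, with -0.07 and -0.05 over all genes tested. These medians are not over the same genes. The first covers 10 members and the second 8, without Csn1s2b and Wap, which were at -0.41 and -1.08 in T-NP against MG-NP. A test of whether the tumor to gland difference was unlike in the T-NP and T-N comparisons called 0 of 10 members and 0% of 19367 genes. No member had an unadjusted p under 0.05 in it. Luminal markers also differed in these comparisons, with 7 of 9 higher and 1 lower in T-N and 8 of 9 higher and 1 lower in T-NP. Centred on those markers, T-NP against MG-NP gave 2 members higher (Csn3 and Lalba) and 5 lower (Csn1s2b, Csn2, Wap, Glycam1 and Muc1). The median difference of all genes there moved from -0.07 to -2.08.

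**Figure D2:**
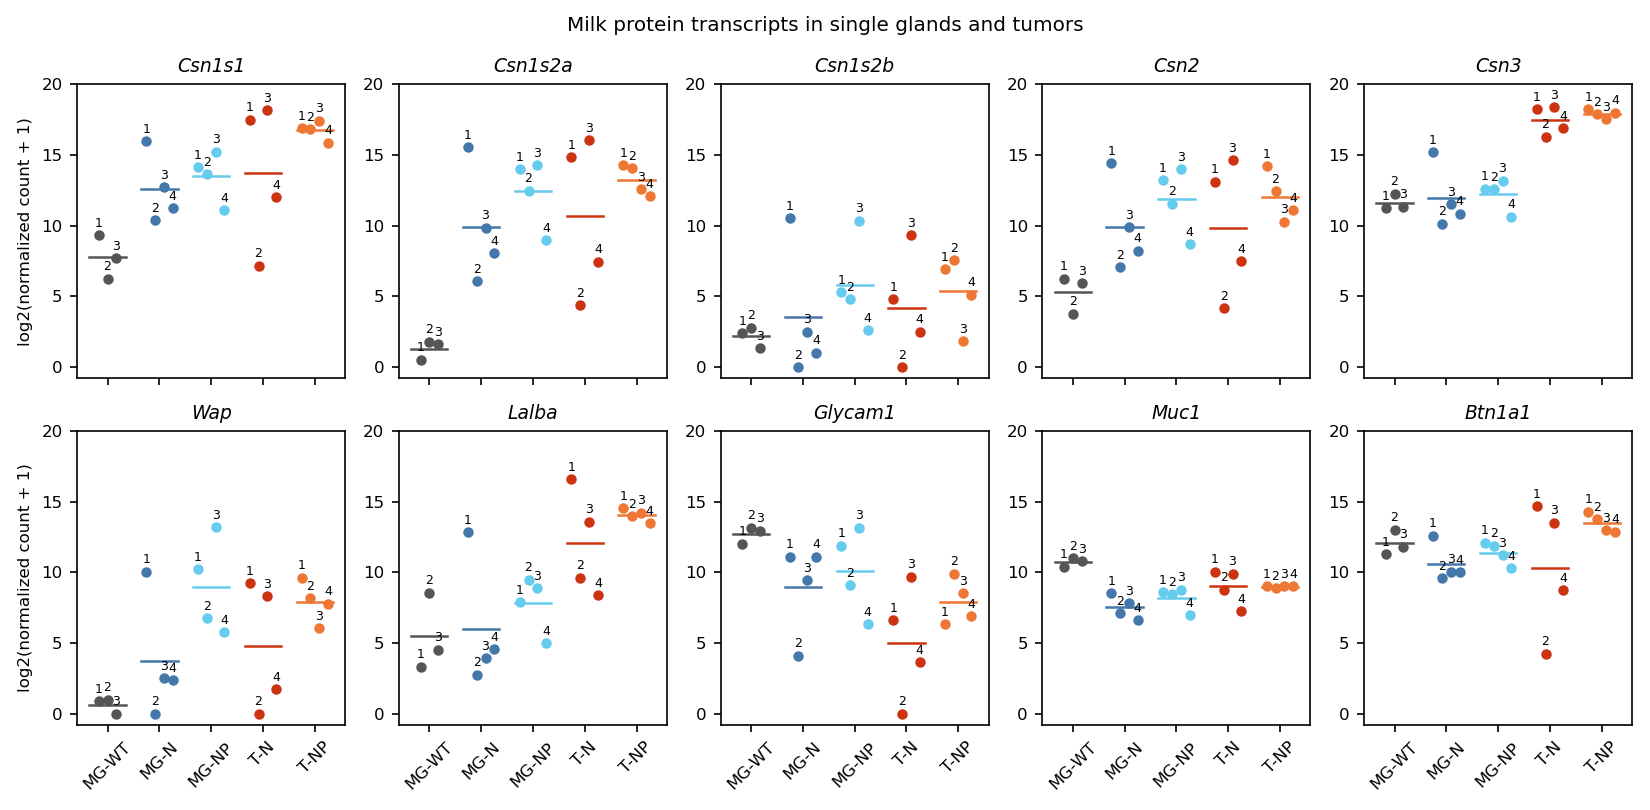
Each panel plots 1 milk protein gene as log2(normalized count + 1) for the 19 libraries in 5 groups, with the replicate number above each point and a line at the group mean. Csn3 is high in the 8 tumors, Csn1s1 runs from 144 to 301356 normalized counts within T-N, and Glycam1 and Muc1 are highest on average in MG-WT.

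**Figure D3:**
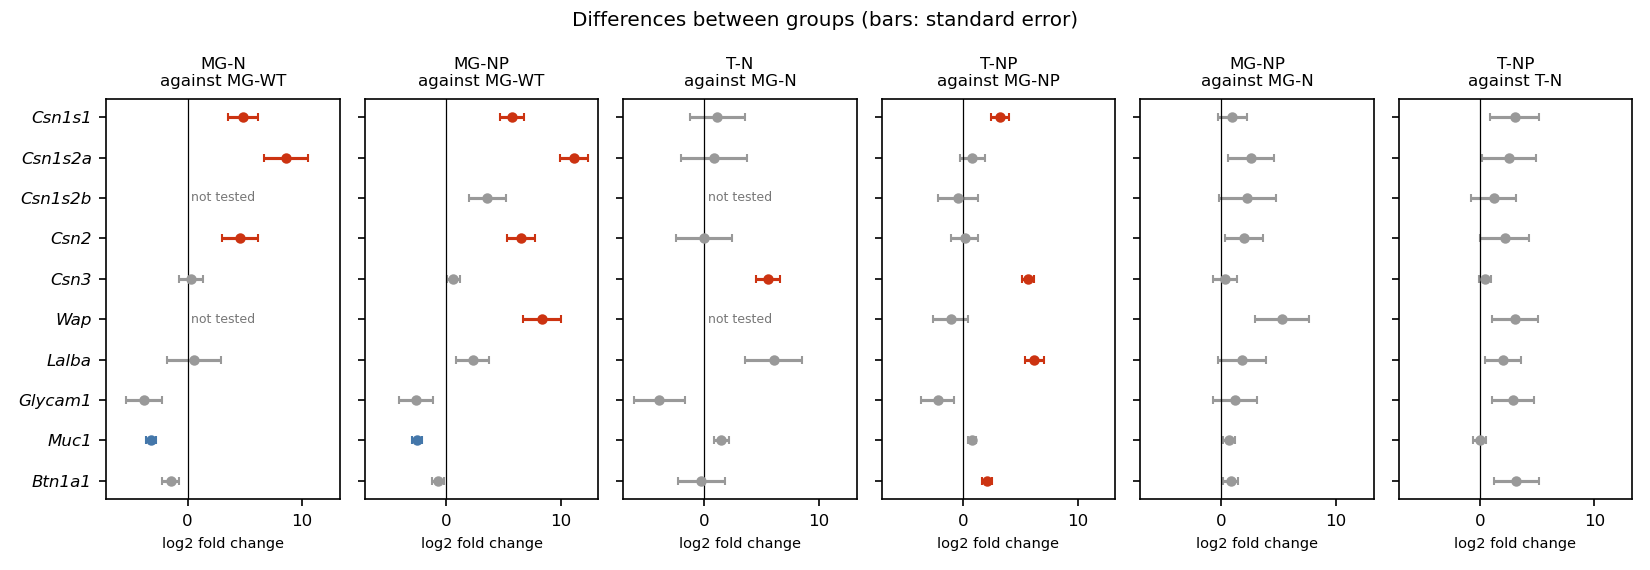
Points give the log2 fold change of each milk protein gene in 6 comparisons and bars the standard error. Red points were called higher and blue points lower (limma adjusted p under 0.05 and at least 2-fold), and grey points were not called, which holds for all 10 genes in the 2 comparisons on the right.

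Butyrophilin, Btn1a1, which anchors the membrane of the secreted fat globule, had 26540.3, 17.9, 11635 and 421 in T-N and 20228, 13892, 8111 and 7521 in T-NP. The glands had 2498, 8350.5 and 3633 in MG-WT, 6208, 782, 1057 and 1048 in MG-N. MG-NP had 4426, 3777, 2346 and 1265. T-NP lay above MG-NP without overlap, and T-N held the highest and the lowest values of the gene. Btn1a1 was higher in T-NP than in MG-NP by 2.11 (SE 0.45, limma adjusted p = 0.00418). Centred on the luminal markers the difference was 0.10 (limma adjusted p = 0.86), and with all 5 groups in 1 fit the adjusted p was 0.246.

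Beta casein, Csn2, and the alpha-s2 casein Csn1s2a did not pass in T-N against MG-N or in T-NP against MG-NP. The other alpha-s2 casein, Csn1s2b, did not pass in T-NP against MG-NP and was not tested in T-N against MG-N. Csn2, a major micelle protein, had 8915, 16.9, 25269.7 and 181 in T-N, 18809, 5515, 1244 and 2229.9 in T-NP, 21765, 133, 945 and 299.7 in MG-N. MG-NP had 9575, 3043, 16200.3 and 416. Its difference was -0.05 (SE 2.42) in T-N against MG-N and 0.14 (SE 1.204) in T-NP against MG-NP. Csn1s2a, a calcium-binding casein, had 30004, 20.02, 69133 and 176 in T-N, 19980.2, 17046, 6197 and 4318 in T-NP, 48844, 66.7, 928 and 264 in MG-N. MG-NP had 16371, 5765, 19829 and 505. T-N and MG-N overlapped for both genes, as did T-NP and MG-NP. Wap had 604, 0, 314 and 2.33 in T-N and 793, 288, 66.2 and 219.7 in T-NP, against 1195, 107, 9490.3 and 54.2 in MG-NP, and its difference of -1.08 (SE 1.54) in T-NP against MG-NP did not pass. Csn1s2b was the least counted casein, with up to 648 in T-N, 185 in T-NP, 1494 in MG-N and 1321 in MG-NP.

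Within the T-N tumors, T-N 1 and T-N 3 lay above T-N 2 and T-N 4 for all 10 members, an order found for 23.1% of 16888 genes with a mean of at least 10. The lower of T-N 1 and 3 was 45.4 times the higher of T-N 2 and 4 for Csn1s1, 170 times for Csn1s2a, 49.3 times for Csn2, 27.6 times for Btn1a1 and 15.8 times for Lalba. For Csn3 the step was 2.60 times and for Muc1 2.20 times. The T-N and T-NP tumors differed in how far the single tumors were apart, which was described and not tested. The SD of Csn1s1 on the log2 scale was 5.17 in T-N, larger than that of 99.98% of genes there, and 0.65 in T-NP, larger than that of 84.6% of genes there. T-NP 1 and 2 share a number in their names, and if they came from the same animal the T-NP spread would cover fewer animals. For Lalba the SDs were 3.76 and 0.45, and for Muc1 1.29 and 0.08. T-N 2 had no read of Csn1s2b, Wap or Glycam1, which allows up to 3.16 normalized counts each, a limit that covers counting error only.

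The luminal score did not follow that order in T-N. The luminal scores of T-N 1 to 4 were 12.09, 12.59, 12.20 and 12.14, with T-N 2, the tumor with the fewest casein reads, the highest. The markers in the score differed. Krt19 had the order of the milk genes, Krt8, Krt18, Cdh1 and Cldn7 had the reverse, and the others had neither. The part of luminal content in the order was not tested. Elf5, a luminal factor of secretory differentiation, had normalized counts of 5198, 3990.1, 4650.4 and 7211 in the same tumors. Of the 11 genes of the lactogenic signalling list, 4 (Nfib, Socs2, Stat5a and Stat5b) had the order of the milk genes, with T-N 1 and 3 above T-N 2 and 4, 2 (Jak2 and Prlr) had the reverse and 5 had neither. Of 16888 genes, 23.1% had that order and 23.6% the reverse. Stat5a, a factor that prolactin activates, had 3491, 851, 3698 and 1332. Markers of other tissues did follow it, since the 8 adipocyte markers summed to 3224 and 7001 in T-N 1 and 3 and to 642 and 1738 in T-N 2 and 4. The 9 muscle markers summed to 3439 and 27559 in T-N 1 and 3 and to 247 and 252 in T-N 2 and 4. Their part in the order was not tested.

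T-NP against T-N gave 0 members called of 10 tested, where limma called 7 genes in all, 0.0421% of 16638. The differences were 3.03 (SE 2.14) for Csn1s1, 3.19 (SE 1.99) for Btn1a1, 3.10 (SE 2.00) for Wap, 2.00 (SE 1.56) for Lalba and 0.47 (SE 0.52) for Csn3. No member had an unadjusted p under 0.05, and edgeR and DESeq2 on the recovered reads also called no member. Of the 10 members, 9 had a positive difference on this scale. For Csn1s1 the arithmetic means were 123141 ± 147338 (SD, n = 4) in T-N and 118866 ± 47688 (SD, n = 4) in T-NP, so the arithmetic means and the log2 values of this gene differed in opposite directions. The same held for Csn1s2a, Csn1s2b, Csn2 and Lalba, or 5 members in all, with Lalba at means of 28230.1 in T-N and 17524 in T-NP.

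The glands of neu mice had more transcripts of Csn1s1, Csn1s2a and Csn2 than the wild-type glands. Csn1s2a, at 0.426, 2.44 and 2.07 normalized counts in MG-WT, lay below each of the 8 neu glands, and its difference was 8.59 (SE 1.92, limma adjusted p = 0.00533) in MG-N and 11.13 (SE 1.22, limma adjusted p = 0.000608) in MG-NP. Those fold changes depend on the pseudocount, as MG-WT held few reads of the gene. Csn1s2a passed the filter on low values only through the neu glands, so it could be called only higher. Csn2, at 75.9, 12.7 and 61.0 in MG-WT, was higher by 4.57 (SE 1.58, limma adjusted p = 0.0355) in MG-N and by 6.54 (SE 1.26, limma adjusted p = 0.00531) in MG-NP. Csn1s1 was higher by 4.83 (SE 1.29, limma adjusted p = 0.012) in MG-N and by 5.77 (SE 1.05, limma adjusted p = 0.00424) in MG-NP. Neither gene overlapped between MG-WT and the neu glands. In MG-N, the Csn2 call was lost in 5 of 17 other settings, with adjusted p up to 0.123: without MG-WT 1, 2 or 3, without MG-N 3, and with all 5 groups in 1 fit. The Csn1s1 call was lost without MG-WT 2 (adjusted p = 0.0512) and with all 5 groups in 1 fit (adjusted p = 0.0522).

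Wap was at 0.853, 0.976 and 0 in MG-WT, at 1053, 0, 4.70 and 4.12 in MG-N. MG-NP had 1195, 107, 9490.3 and 54.2. MG-NP lay above MG-WT without overlap, and the difference was 8.37 (SE 1.67, limma adjusted p = 0.0061), with 6.55 to 12.1 over the alternatives. Wap had at most 2 reads in any MG-WT library. It passed the filter on low values only through the MG-NP glands, so it could be called only higher. In MG-N a single gland, MG-N 1, carried more than 10 normalized counts, so the gene was not tested there. Csn3 and Btn1a1 overlapped between MG-WT and both neu gland groups, and Lalba did too.

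Muc1, a mucin of the apical membrane of luminal cells, ran the other way. It had 1363, 2074 and 1759 normalized counts in MG-WT, 372, 139, 225 and 95.8 in MG-N. MG-NP had 383, 353, 436 and 123. Both neu gland groups lay below MG-WT without overlap, by a log2 difference of -3.21 (SE 0.42, limma adjusted p = 0.000354) in MG-N and -2.54 (SE 0.44, limma adjusted p = 0.00346) in MG-NP. The 9 luminal markers were lower in the same comparisons, 9 of 9 in each, and centred on them the Muc1 differences were -0.68 (limma adjusted p = 0.116) and -0.06 (limma adjusted p = 0.921). Tumors had 1055, 438, 965 and 153 in T-N and 512, 465, 513 and 523 in T-NP.

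In counts, MG-N against MG-WT gave 3 members higher and 1 lower of 8 tested, where limma called 37% of 19017 genes, 19.1% higher and 17.9% lower. MG-NP against MG-WT gave 4 higher and 1 lower of 10 tested, where 32.6% of 19065 genes were called, 16.4% higher and 16.2% lower. Without overlap, 3 members were higher and 2 lower (Glycam1 and Muc1) in MG-N, against 31.5% and 29.8% of all genes. In MG-NP 4 were higher and 1 lower, against 26.5% and 27.9%. The higher members include Csn1s2a in both comparisons and Wap in MG-NP, which the filter on low values let in only through the neu glands. These comparisons share the MG-WT libraries. The median difference of the tested members was 0.43 in MG-N and 2.97 in MG-NP, and 0.02 over all genes in each. The member medians cover different genes, 8 in MG-N and 10 in MG-NP, so their sizes cannot be compared. Csn1s2b and Wap are only in the MG-NP median, where both had positive differences. Both passed the filter on low values there only through the MG-NP glands. Centred on the luminal markers, Btn1a1 turned from -1.47 to 1.06 in MG-N and from -0.67 to 1.81 in MG-NP, and the members called became 6 higher and 1 lower in MG-N and 8 higher in MG-NP. That centring moved the median of all genes to 2.55 and 2.51. Without MG-WT 2, the MG-N count became 1 higher (Csn1s2a) and 1 lower (Muc1). Without MG-N 1 it became 3 higher and 3 lower, with Glycam1 and Btn1a1 added.

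MG-NP against MG-N gave 0 members called of 10 tested, where limma called 0% of 18563 genes. The largest difference was 5.27 (SE 2.34, limma adjusted p = 0.483) for Wap, and the smallest 0.33 (SE 1.06) for Csn3. No member had an unadjusted p under 0.05 in limma, and edgeR and DESeq2 called no member. DESeq2 gave no adjusted p for Csn1s2b and Lalba. Its differences for them were -0.11 and -2.34, where limma had 2.26 and 1.79. Within MG-N, MG-N 1 was the highest gland for 9 members and MG-N 2 the lowest for 9. Within MG-NP, MG-NP 3 was the highest for 8 members and MG-NP 4 the lowest for all 10. MG-NP 4 also had the lowest luminal score of the 19 libraries, 9.32, and MG-NP 3 the highest of its group, 11.06. MG-N 1 had a luminal score of 10.74, below the 11.13 of MG-N 3, while its Csn1s2a was 52.6 times and its Lalba 321 times the next gland. Its genotype was unlike that of the other MG-N glands, and with 1 such gland genotype and animal cannot be told apart.

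The 8 tumors together, against MG-WT, gave 6 members higher (Csn1s1, Csn1s2a, Csn2, Csn3, Wap and Lalba) and 2 lower (Glycam1 and Muc1) of 10 tested, where limma called 45.6% of 18735 genes, 18.9% higher and 26.7% lower. The differences ran from 5.60 (SE 1.86) for Csn2 to 10.67 (SE 2.04) for Csn1s2a among the higher genes. Csn3 and Csn1s2a did not overlap between the tumors and MG-WT, while Csn1s1, Csn2, Wap and Lalba did, and Glycam1 and Muc1 lay below MG-WT without overlap. Of all genes, 25.3% lay above and 28.9% below without overlap. Csn1s2a and Wap had few reads in MG-WT and passed the filter only through the tumors, so they could be called only higher. Lalba, at 8.96, 375 and 22.2 in MG-WT, also needed at least 1 tumor library to pass it. Without MG-WT 2 the Csn2 call was lost (adjusted p = 0.0907), and without MG-WT 3 the Wap call (adjusted p = 0.0506). Centred on the luminal markers the Muc1 call was lost (adjusted p = 0.0574).

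Glycam1 is a mucin-like protein of milk that is also a ligand for L-selectin made by high endothelial venules of lymph nodes. It was at 4217, 9207 and 7973 normalized counts in MG-WT, 2219, 16.1, 697 and 2227 in MG-N. MG-NP had 3789, 549.5, 9162 and 78.8. The tumors had 97.7, 0, 831 and 11.7 in T-N and 79.6, 959, 366 and 119.9 in T-NP. MG-WT lay above all 8 tumors, and MG-NP 3 lay within the MG-WT range. Glycam1 was lower in the tumors than in MG-WT by a log2 difference of -6.27 (SE 1.58, limma adjusted p = 0.00467). Against MG-WT, its differences of -3.78 (limma adjusted p = 0.0662) in MG-N and -2.61 in MG-NP did not pass. Nor did those of -3.95 (limma adjusted p = 0.163) in T-N against MG-N and -2.20 (limma adjusted p = 0.22) in T-NP against MG-NP. Glycam1 was called lower in MG-N in 5 of 18 other settings, and in MG-NP in 0 of 18. Those 5 were without MG-N 1, 2 or 4, with the replicate block, and centred on the luminal markers. T-N against MG-N gained the call in 2 of 19 other settings and T-NP against MG-NP in 3 of 20.

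The high endothelial venule markers Chst4, Fut7 and Madcam1 differed between glands as well. Their summed normalized counts were 114 to 260.2 in MG-WT, 132, 31.0, 195 and 234 in MG-N. MG-NP had 656, 30.0, 229 and 20.7. MG-N 2, MG-NP 2 and MG-NP 4, which had the lowest sums of the glands, were also the 3 neu glands with the lowest Glycam1. MG-NP 1 had the highest sum and less Glycam1 than any wild-type gland. Chst4 was at 58.0 to 144 in MG-WT and 1.15 to 50.5 in MG-N. Fut7 was at 47.3 to 87.4 in MG-WT and 21.7 to 54.6 in MG-N. Both were called lower in MG-N, as limma adjusted p was 0.0251 and 0.0356. Madcam1 was at 8.53 to 28.8 in MG-WT and 6.90 to 153 in MG-N. In MG-NP, Chst4 was at 0 to 136, Fut7 at 4.28 to 94.4 and Madcam1 at 7.75 to 425, and 0 of 3 were called against MG-WT. Fut7 and Madcam1 were highest in MG-NP 1, which was not the gland with the most Glycam1. In the tumors the sums were 2.11 to 3.03 in T-N and 2.24 to 6.10 in T-NP, and Chst4 and Fut7 had at most 3 reads in any tumor, while Glycam1 reached 831 in T-N 3 and 959 in T-NP 2. The 7 B cell markers summed to 1303 to 2516 in MG-WT, 143 to 8926 in MG-N, 295 to 15585 in MG-NP, 42.1 to 620.1 in T-N and 52.7 to 512 in T-NP, with the lowest gland values in MG-N 2 and MG-NP 2. The part of lymph node tissue in the gland values was not tested.

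**Figure D4:**
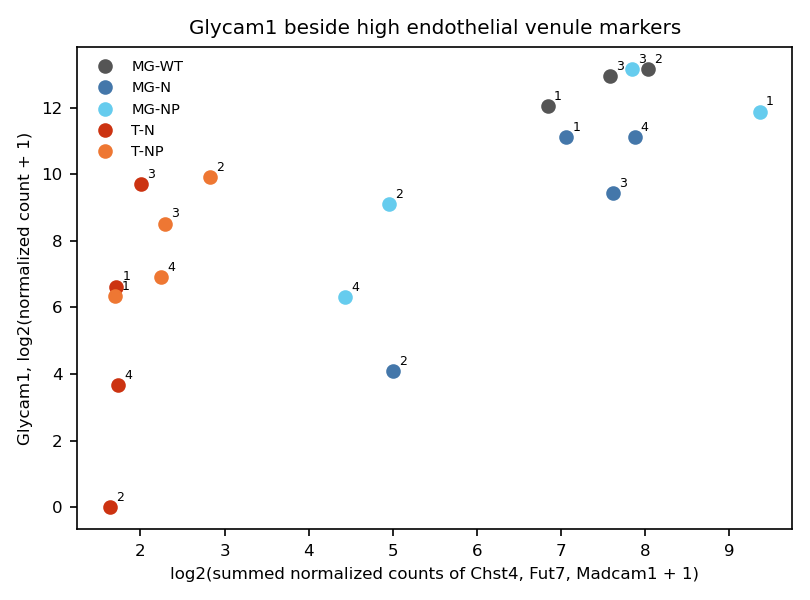
Each point is 1 of 19 libraries, with the summed normalized counts of 3 high endothelial venule markers on the horizontal axis and Glycam1 on the vertical axis, both as log2(value + 1), and the replicate number beside it. The tumors have marker sums of 2.11 to 6.10 and Glycam1 of 0 to 959, and the glands have sums of 20.7 to 656, with MG-N 2, MG-N 3, MG-NP 2 and MG-NP 4 within the Glycam1 range of the tumors.

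Over the 19 libraries the caseins followed each other, described here without a test since libraries of a group share their condition. Pearson's r of log2 values between the 4 caseins other than Csn3 was 0.70 to 0.95, and Csn3 had 0.43 to 0.66 with them. Glycam1 had -0.34 to 0.53 with the 9 other members. After subtraction of the group means, the 45 pairs had a median r of 0.79, a lowest of 0.55 and a highest of 0.96. Glycam1 then had 0.55 to 0.82 and Muc1 0.55 to 0.79 with the other members. Pooled over the groups, the single gland or tumor with more of a casein thus also tended to have more of the members that differed in their group order. This did not hold in each group. MG-WT 1 was the highest of its group for Csn1s1 and Csn2 and the lowest for Csn1s2a, Csn3, Lalba, Glycam1, Muc1 and Btn1a1. T-NP 1 was the highest of its group for Csn1s2a, Csn2 and Csn3 and the lowest for Glycam1.

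**Figure D5:**
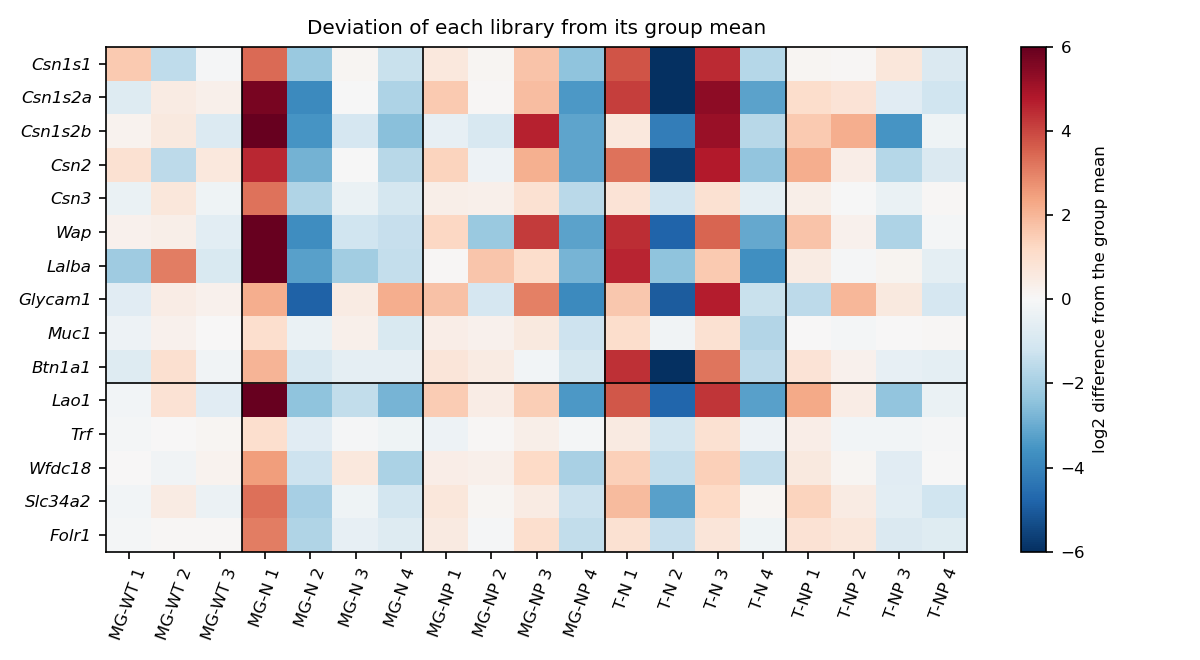
Colors give the log2 difference of each library from its group mean for the 10 milk protein genes and, under the line, for Lao1, Trf, Wfdc18, Slc34a2 and Folr1, with a scale that stops at 6 on either side. MG-N 1, T-N 1 and T-N 3 are red and MG-N 2, MG-NP 4 and T-N 2 blue for most genes, and T-NP is paler for most genes.

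Among genes outside the 10 members, the one most like the mean of the 5 caseins over the 19 libraries was Lao1, an L-amino acid oxidase found in milk, with r = 0.95 among 20392 genes. It had 4182, 6.90, 14.1 and 5.15 normalized counts in MG-N, 815, 378, 774 and 24.5 in MG-NP, 735, 1.05, 1070.4 and 4.67 in T-N, 9132, 2563, 361 and 1421 in T-NP, and at most 1.95 in MG-WT. MG-N 1 was the highest of its group for Lao1, and T-N 1 and T-N 3 lay above T-N 2 and T-N 4, as for the caseins, while its highest value was in T-NP 1. The next genes outside the 10 members were 1700012B07Rik at r = 0.88, the antisense gene Gm11683 at 0.84, Gm2a, a ganglioside activator, at 0.83 and Gm37632 at 0.83. With group means subtracted, the 5 most alike non-members were Lao1 at 0.96, Trf, the iron carrier transferrin, at 0.93, Wfdc18, a whey acidic protein family member, at 0.92, Slc34a2, a phosphate transporter, at 0.91 and Folr1, a folate receptor, at 0.90. Of the members outside the caseins, Wap had r = 0.90 with that mean over the 19 libraries, Lalba 0.79, Btn1a1 0.59, Glycam1 0.07 and Muc1 0.002, and with group means subtracted they had 0.95, 0.78, 0.83, 0.80 and 0.75. Trf, Wfdc18, Slc34a2 and Folr1 were in the list of 17 other milk secretion genes, which was chosen with earlier results of these data known.

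That list covers lactose synthesis, fat globules, transporters and milk defence proteins. It had 5 genes higher and 0 lower of 17 in T-N against MG-N, and 8 higher and 1 lower in T-NP against MG-NP. Of all genes, 12.8% were called higher and 22.3% lower in the former, and 14.7% and 24% in the latter. Trf was at 476 to 567 in MG-WT, 1171 to 3773 in MG-N, 1502 to 2374 in MG-NP, 14845 to 60116 in T-N and 33164 to 49018 in T-NP, and rose by 4.10 (SE 0.49, limma adjusted p = 0.000325) and 4.34 (SE 0.19, limma adjusted p = 3.96e-06) in those comparisons. Wfdc18 was higher by 4.11 (SE 1.07, limma adjusted p = 0.0118) and 4.70 (SE 0.61, limma adjusted p = 0.000326), and the gland and tumor groups of each pair did not overlap. Folr1 was higher by 4.71 and 4.73, and Spp1, the secreted phosphoprotein osteopontin, by 4.74 (SE 1.07, limma adjusted p = 0.00615) in T-N. The lowered gene was Fabp3, a fatty acid binding protein that muscle also makes, with 558 to 8022 in MG-NP and 7.79 to 135 in T-NP. In the glands against MG-WT the list had 4 higher and 1 lower in MG-N and 6 higher and 1 lower in MG-NP, and Mfge8, a fat globule membrane protein, was the lowered gene of each. The largest changes were those of Cidea, a lipid droplet protein that adipose tissue also makes, at 4.404 (SE 0.28, limma adjusted p = 1.08e-05) in MG-N, and of Fabp3 at 7.71 (SE 0.80, limma adjusted p = 0.000503) in MG-NP. Plin2, a lipid droplet coat protein that adipose tissue also makes, was higher by 2.19 and 1.89 there and by 1.23 in T-NP against MG-NP. The median difference of the list was -0.32 in MG-N and 0.18 in MG-NP against MG-WT, and 0.96 and 1.59 in the tumor comparisons. Neither MG-NP against MG-N nor T-NP against T-N had a call in the list.

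The lactogenic signalling list held 11 genes. In the neu glands against MG-WT, 0 were higher and 6 lower in each comparison, with a median of -1.004 in MG-N and -1.03 in MG-NP. Of all genes, 17.9% and 16.2% were called lower there, and of the 9 luminal markers all 9 in each. Prlr, the prolactin receptor, was at 49242 to 55475 in MG-WT, 4725 to 6948 in MG-N, 2994 to 10958 in MG-NP, 2569 to 5084 in T-N and 2611 to 3811 in T-NP. It was lower by a log2 difference of -3.14 (SE 0.16, limma adjusted p = 3.08e-06) in MG-N and -3.36 (SE 0.41, limma adjusted p = 0.00091) in MG-NP, and MG-WT did not overlap any other group. Between tumors and glands, 4 of the 11 were higher in T-N and 5 in T-NP, with 0 lower. Of all genes, 12.8% were called higher and 22.3% lower in T-N, and 14.7% and 24% in T-NP. Of the 9 luminal markers, 7 were higher and 1 lower in T-N, and 8 higher and 1 lower in T-NP. Socs2, a feedback inhibitor of cytokine signals, was higher by 3.65 (SE 0.37, limma adjusted p = 0.000163) and 3.84 (SE 0.31, limma adjusted p = 3.17e-05), and Elf5 by 2.11 (SE 0.41, limma adjusted p = 0.00307) and 2.00 (SE 0.43, limma adjusted p = 0.00426). The factors Cebpb and Id2, both tied to lobuloalveolar development, were called in 4 and 3 of the 6 pairwise comparisons. Cebpb was lower in the neu glands than in MG-WT, at -3.41 and -2.75, and higher in T-N and T-NP than in their glands, at 2.25 and 1.91. Id2 was at -1.004 in MG-N against MG-WT and at 2.58 and 2.87 in the tumor comparisons. Nfib was lower in MG-N (-1.56) and MG-NP (-1.70) than in MG-WT and higher in T-NP than in MG-NP (1.13). Stat5a was at 851 to 3698 in T-N and 2249.6 to 3426 in T-NP and was not called in either tumor comparison, while it was lower in MG-NP than in MG-WT by a log2 difference of -1.03 (SE 0.29, limma adjusted p = 0.0221). MG-NP against MG-N and T-NP against T-N had 0 calls in the list.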

How the data were processed

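Gene-level RNA-seq values of 19 libraries in 5 groups were read from 1 deposited table. Per the labels and the study's methods, the authors aligned paired reads with TopHat2 2.1.1 and Bowtie2 to GRCm38/mm10. The counting tool and annotation are not given in the sources used here, and the sources name different library kits. The deposited unit is a signal: the authors divided counts by 1 size factor per library. Multiplying by that factor gave whole reads for 100.0% of values within 0.05.

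Symbols came from GENCODE, which matched 45143 of 46078 IDs, and lengths from the longest principal transcript. Values were tested as log2(value + 1) with limma 3.58.1 on the groups compared, with the trend option and Benjamini-Hochberg adjustment over all genes at 10 or more in as many libraries as the smaller group holds. A call needed an adjusted p under 0.05 and at least 2-fold. The fit was tested on simulated data. Alternatives were pseudocounts 0.5 and 5, no filter, a mean of 50, TMM, edgeR 4.0.16 and DESeq2 1.42.0 on recovered reads, no fold minimum, all 5 groups in 1 fit, a replicate block, luminal centring, T-NP 1 and 2 averaged, and each library left out.

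All 10 members are named. Of the lists of milk secretion (17 genes) and lactogenic signalling (11 genes), counts are given, with values for genes called in 3 or more of 6 pairwise comparisons or with the largest or smallest change; Stat5a was added after its values were seen. Marker lists were luminal, basal, white adipocyte, skeletal muscle, high endothelial venule and B cell genes. The members and lists were chosen with earlier results of these data known. Replicate numbers did not pair the samples: deviations of same-numbered libraries correlated from -0.257 to 0.285. The sources do not tie each library to a separate animal, so p-values measure the spread between libraries.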

Additional observations from a re-analysis of the deposited data

Results flagged for a closer look

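In 13 of 40 sets of 4 libraries (10 genes in 4 groups), 1 library lay far from the other 3 by Dixon's criterion on normalized counts. Chance gives about 1 in 20 for normally distributed values, a rate that need not hold for counts as skewed as these. On the log2(value + 1) scale, tried after the data were seen, 2 libraries stood apart, MG-N 1 for Btn1a1 and MG-NP 4 for Muc1, so 1 of the 13 was found on both scales. Of the 13, 8 were MG-N 1, which was the highest of its group with normalized counts of 65332 for Csn1s1, 48844 for Csn1s2a, 1494 for Csn1s2b, 21765 for Csn2, 37545 for Csn3, 1053 for Wap, 7266 for Lalba and 6208 for Btn1a1. The genes are not independent, since they deviate together within groups. MG-NP 3 stood apart with 1321 for Csn1s2b and 9490.3 for Wap. T-N 3 stood apart with 648 for Csn1s2b and 831 for Glycam1, and T-N 1 with 99399 for Lalba. No library of T-NP stood apart in this way for any of the 10 genes.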

How the results depend on the processing

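The counts of members called in all tumors against MG-WT, in T-NP against T-N and in the interaction stayed within 1.5 times the main count under the alternatives run. MG-N against MG-WT, with 4 called, had 2 with DESeq2, which gave no adjusted p for Csn1s2a and Csn2, 2 with all 5 groups in 1 fit, 7 centred on luminal markers, and 2 to 6 with 1 library left out, the 2 without MG-WT 2 and the 6 without MG-N 1. MG-NP against MG-WT, with 5, had 8 when centred. T-N against MG-N, with 1, had 2 with DESeq2, 3 with all groups in 1 fit, 3 when centred, and 1 to 2 with 1 library left out, the 2 without MG-N 1 (Lalba added) or T-N 4 (Muc1 added). T-NP against MG-NP, with 4, had 2 with all groups in 1 fit and 7 when centred, and MG-NP against MG-N, with 0, had 1 when centred (Wap). The replicate block moved T-N against MG-N from 1 to 4 calls (Lalba, Glycam1 and Muc1 added); the numbers do not pair the samples, and the block moved no other count by over 1.5 times. Over all genes, edgeR and DESeq2 on the recovered reads called 7137 and 7222 genes in MG-N against MG-WT, 6581 and 7071 in MG-NP against MG-WT, 6218 and 6506 in T-N against MG-N, 7014 and 7223 in T-NP against MG-NP, 8668 and 8691 in all tumors against MG-WT, 0 and 514 in MG-NP against MG-N, 0 and 85 in T-NP against T-N (limma 7), and 0 and 319 in the interaction.

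Of 1564 single-gene values, 1511 kept their call, 16 lost it, 33 gained one and 4 turned with a call, all when centred: Btn1a1 to 1.06 in MG-N and 1.81 in MG-NP against MG-WT, and Csn2 to -1.87 and Muc1 to -1.23 in T-NP against MG-NP. A further 105 changed sign without a call in either fit, 34 of all sign changes being in edgeR or DESeq2. The spread between the few libraries of a group, and for Wap and Csn1s2a the few reads in MG-WT, limit the values. For the other changes the cause was not tested.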
